A study of Mus musculus with 12 samples.

Results

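The lysosomal hydrolases and membrane proteins described here were 45 genes taken by name from a table of 32721 genes. They comprised 11 proteases, 10 glycosidases, 5 sulfatases, 8 lipid hydrolases and their activators, 2 acid phosphatases, 8 proteins of the lysosomal membrane, and Grn, the precursor of the lysosomal granulins. The choice was by name and role, with no threshold on measured values. All 45 were found in the table, and 44 passed the filter for testing, which Ctss failed. The study sequenced poly-A RNA of mouse embryonic fibroblasts (MEFs) of a line that carries floxed Vps15 (Vps15f/f), the gene Pik3r4, which encodes the regulatory subunit of class 3 PI3K. Per the treatment labels every culture received an adenovirus 5 days before the medium treatment, either adeno-CRE, which deletes floxed DNA (Vps15KO), or adeno-GFP (WT). The library names carry pLEX with GFP or CRE instead of adeno, and the vector was taken from the labels. For all libraries the labels give 4.5 g/L glucose and 10% FBS for culture, and 90% confluence. Cultures then stayed in basal growth medium or spent 2 h in EBSS, a salt solution without amino acids. The move to EBSS changed the whole medium, so the lack of amino acids and other differences between the media cannot be told apart. This gave 4 groups of 3 libraries: Vps15KO in EBSS, Vps15KO in basal medium, WT in EBSS and WT in basal medium. Vps15KO and WT also differed in the transgene, so loss of Vps15 and expression of Cre cannot be told apart, and a single Vps15f/f line is named. The labels do not say that replicates came from separate cultures, so p-values measure the spread between these samples.

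Lysosomes break down proteins, sugars, lipids and sulfated glycans with hydrolases that work at acid pH. Most soluble hydrolases are tagged with mannose 6-phosphate in the Golgi and carried to the lysosome by receptors, while heavily glycosylated membrane proteins line the organelle and export its products. Many of their genes hold a CACGTG element near the start site that is bound by the MiT/TFE factors TFEB, TFE3 and MITF, which move into the nucleus when amino acids run out. Class 3 PI3K makes the phosphoinositide PI3P on endosomes and autophagosomes, which deliver cargo to lysosomes.

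Libraries held 21278921 to 21698584 reads in genes. Normalized counts below are reads worked back from the deposited log2 values and divided by the size factor of the library. A log2 change is a difference of the deposited values, tested with limma across 14279 genes, and a gene was called at a Benjamini-Hochberg adjusted p under 0.05. Pik3r4, the targeted gene, had 632 ± 35.9 normalized counts in Vps15KO cells in EBSS against 895 ± 62.7 in WT cells in EBSS, and 658 ± 36.7 in Vps15KO cells in basal medium against 875 ± 10.3 in WT cells in basal medium (SD, n = 3 each). It was lower in Vps15KO by 0.48 in EBSS and by 0.40 in basal medium on the log2 scale. These counts cover the whole gene, and the floxed exons are not given in the sources used here. Of 10 fibroblast markers, the summed normalized counts were 182598 to 195544 in Vps15KO cells in EBSS and 202499 to 211121 in Vps15KO cells in basal medium, against 404457 to 452383 and 466808 to 490960 in the matching WT cells. The markers differed unevenly. In basal medium Col1a1 averaged 21530 normalized counts in Vps15KO against 80451 in WT cells, Vim 98073 against 150770, and Dcn 144 against 150. In these bulk libraries fewer cells of a type and less RNA of these genes per cell cannot be told apart. Thy1, one of the 10, averaged at most 2.06 normalized counts in any group. Macrophages and osteoclasts are rich in lysosomes; 10 macrophage markers summed to 70.0 to 116 normalized counts per library and 6 osteoclast markers to 34.9 to 88.5, with the osteoclast receptor gene Calcr at 0 in all libraries. One library of WT cells in basal medium, replicate 2, stood apart. Its reads differed from those of the other 2 libraries with chi-square values of 20.2 and 21.1 per gene, against 3.15 between those 2. Replicate 1 of WT cells in EBSS differed from its partners by 8.17 and 11.8 per gene, against 3.82 between them.

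The 45 genes together took 2.99% ± 0.0326 of the reads in Vps15KO cells in EBSS and 3.22% ± 0.103 in Vps15KO cells in basal medium, against 2.82% ± 0.0452 in WT cells in EBSS and 2.84% ± 0.0976 in WT cells in basal medium (SD, n = 3 each). The lowest Vps15KO library in EBSS, at 2.96%, lay above the highest WT library in EBSS, at 2.87%. In basal medium the lowest Vps15KO library, at 3.13%, lay above the highest WT library, at 2.93%. A few abundant genes weigh most in these shares. In each library 5 genes held 58.2% to 61.1% of the reads of the 45. They were Ctsb, Ctsd, Ctsl and Psap, with Lamp1 in Vps15KO libraries and Cd63 in WT libraries. The 3 highest genes per length of exon were Ctsd, which encodes the aspartic protease cathepsin D, with 40663 mean normalized counts per kb, Psap, the precursor of the saposins, with 25533, and Cd63, a membrane tetraspanin, with 22862. At the other end stood Acp5 and Ctss. Ctss, encoding cathepsin S of antigen-presenting cells, had at most 6 reads in a library.

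**Figure D1:**
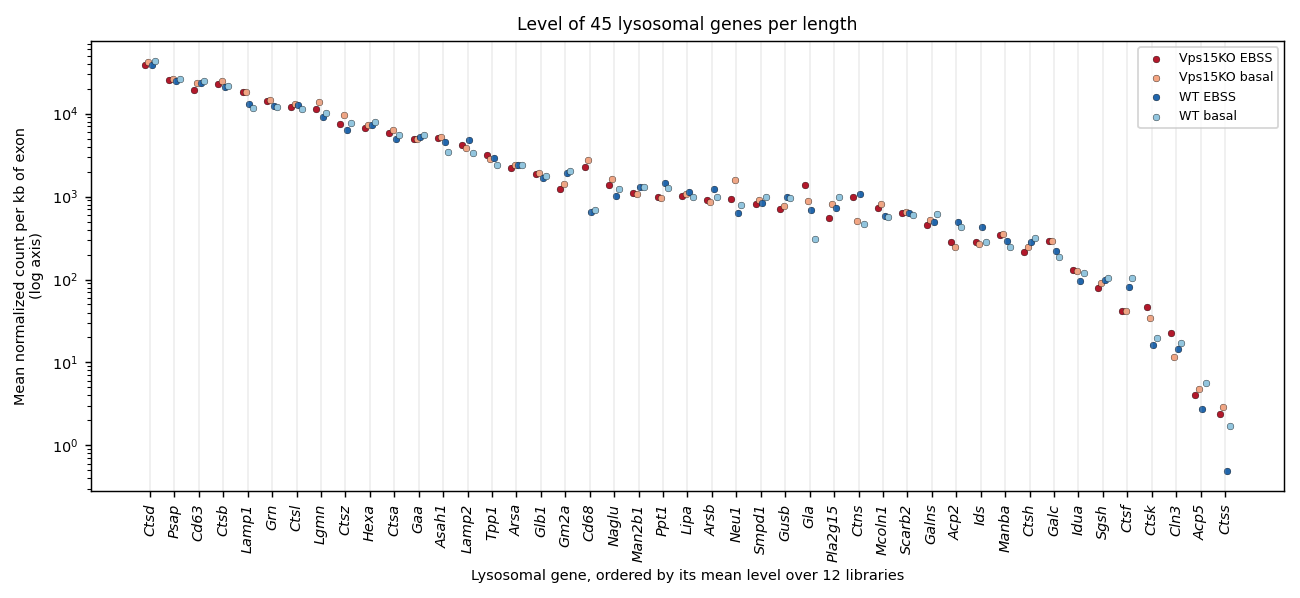
Mean normalized count per kb of exon (log axis) of the 45 lysosomal genes in each group of 3 libraries, ordered by their mean over 12 libraries. The genes run from Ctsd at 40663 per kb to Ctss at the low end, and for most genes the 4 group means lie close together beside this range.

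In every comparison lysosomal genes were called in both directions. EBSS called 4 members higher and 11 lower of 44 in Vps15KO cells, where 52.0% of all genes tested were called (25.9% higher, 26.1% lower). In WT cells EBSS called 13 higher and 9 lower, where 62.7% of all genes were called (31.4% higher, 31.3% lower). Vps15KO against WT called 15 higher and 12 lower in EBSS, beside 57.2% of all genes (29.4% higher, 27.8% lower), and 18 higher and 12 lower in basal medium, beside 58.5% (29.3% higher, 29.2% lower). The counts by role given further below stand beside these same shares. The median log2 change over members under EBSS was -0.07 in Vps15KO cells and -0.05 in WT cells, against -0.02 over all genes in each, and the value in WT cells was 0.010 without WT basal replicate 2, the library that stood apart. The median absolute log2 change of members was 0.12 in Vps15KO and 0.17 in WT cells, against 0.24 and 0.30 over all genes. For Vps15KO against WT the median change of members was -0.0049 in EBSS and 0.08 in basal medium, against -0.00076 and -0.0095 over all genes, and the median absolute change of members was 0.27 in EBSS and 0.26 in basal medium, against 0.27 and 0.28 over all genes. A called log2 change of at least 0.5 was met by 5 members under EBSS in Vps15KO cells (17.9% of all genes) and by 3 in WT cells (27.6%). In the genotype comparisons it was met by 9 members in EBSS (24.6% of all genes) and by 11 in basal medium (24.4%). Groups of 3 libraries did not overlap under EBSS in 22 members in Vps15KO cells (63.0% of all genes) and 26 in WT cells (65.2%), and between genotypes in 37 members in EBSS (66.3%) and 29 in basal medium (61.7%). The 2 EBSS comparisons share no library with each other, and neither do the 2 genotype comparisons. An EBSS comparison and a genotype comparison share the libraries of 1 group. The count of 11 members lower under EBSS in Vps15KO cells was 6 without Vps15KO EBSS replicate 1, 7 without Vps15KO EBSS replicate 2 and 7 without Vps15KO basal replicate 2.

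**Figure D2:**
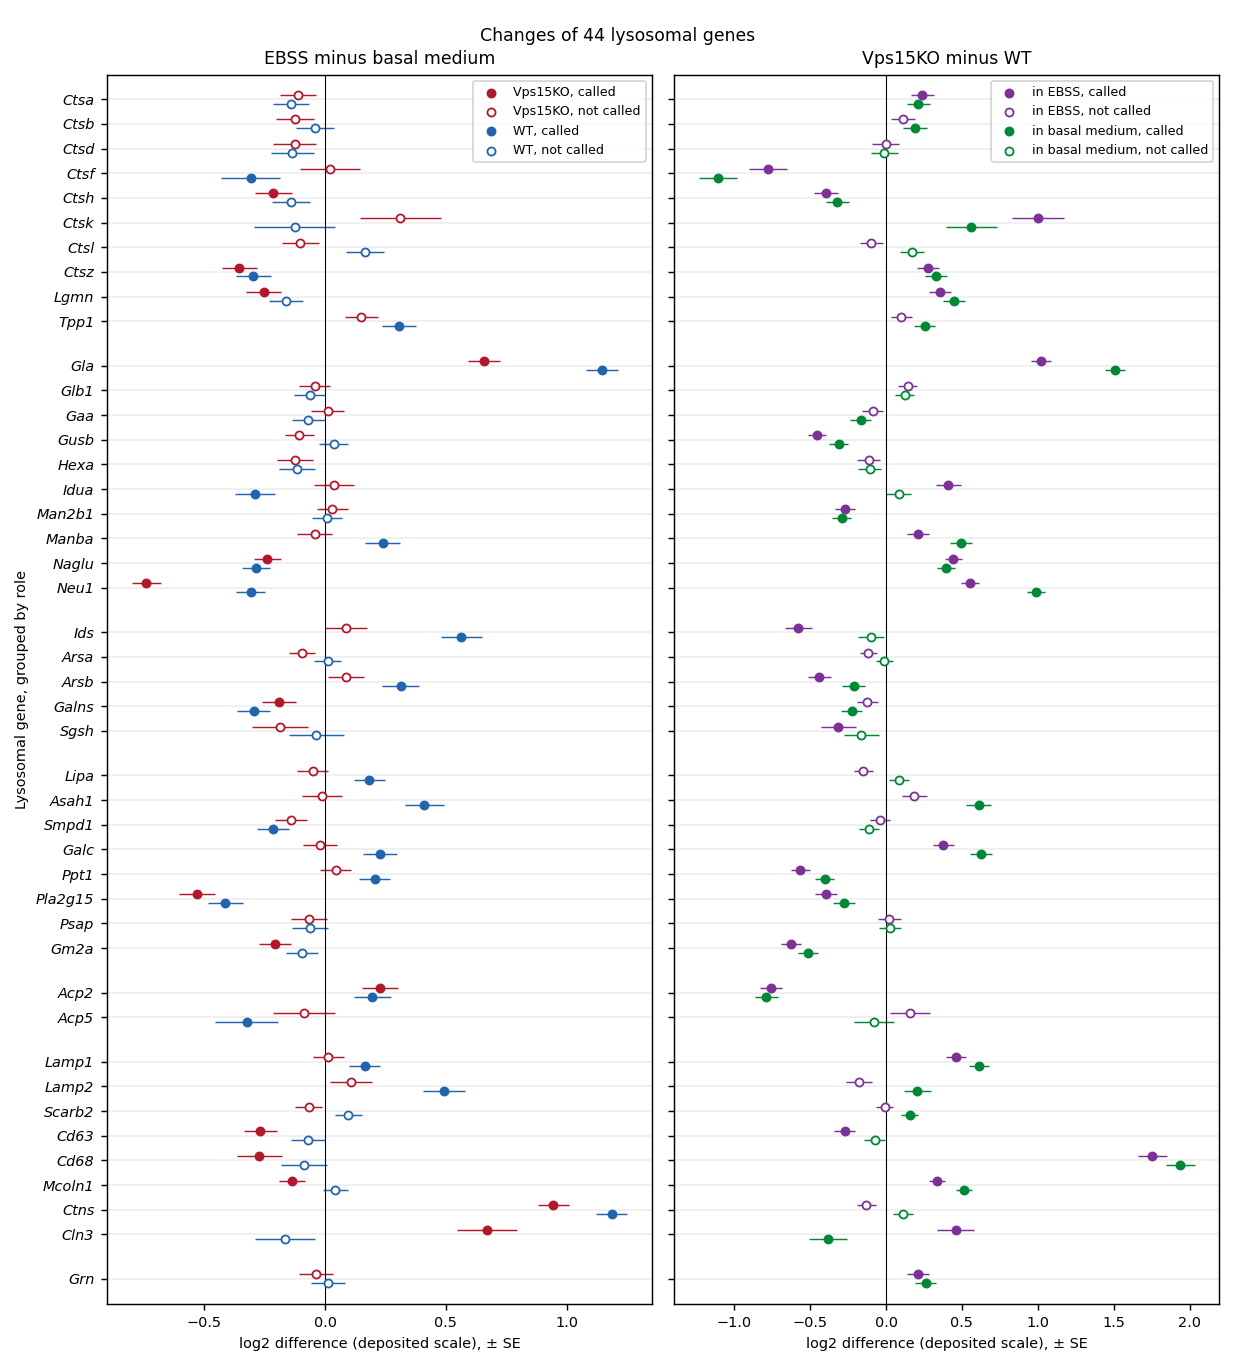
Log2 difference with its standard error for the 44 lysosomal genes tested, by role; left, EBSS minus basal medium in Vps15KO and WT cells, right, Vps15KO minus WT in EBSS and in basal medium, with filled points called at an adjusted p under 0.05. Gla and Ctns lie farthest right under EBSS, Cd68 and Gla farthest right for Vps15KO, and Ctsf farthest left for Vps15KO in basal medium.

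Genes called by EBSS overlapped in part between genotypes. Acp2, Ctns and Gla were called higher in both, which is 75.0% of the 4 in Vps15KO cells and 23.1% of the 13 in WT cells. Ctsz, Galns, Naglu, Neu1 and Pla2g15 were called lower in both, which is 45.5% of the 11 in Vps15KO cells and 55.6% of the 9 in WT cells. Over all genes tested, those called higher in both were 79.9% of the Vps15KO list and 65.8% of the WT list, and those lower in both were 75.7% and 63.0%. Genotype calls also overlapped between media: 13 genes were higher in Vps15KO in both, 86.7% of the 15 in EBSS and 72.2% of the 18 in basal medium, and 9 were lower in both, 75.0% of each list. Over all genes tested, those higher in Vps15KO in both media were 70.1% of the EBSS list and 70.4% of the basal list, and those lower in both were 71.2% and 67.8%. Among members Cln3 alone was called in opposite directions. Arsa, Ctsd, Ctsl, Glb1, Hexa and Psap were called in none of the 4 comparisons, so 3 of the most abundant products (cathepsins D and L and the saposins) are among those with no call.

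The 11 protease genes include the cathepsins, which cut proteins inside the lysosome and in some cell types outside it. For Vps15KO in EBSS, 4 of 10 tested were higher and 2 lower, and in basal medium 6 were higher and 2 lower. Under EBSS none was higher and 3 were lower in Vps15KO cells, against 1 higher and 2 lower in WT cells. Ctsf, encoding the cysteine protease cathepsin F, had the largest fall of the members in Vps15KO. Ctsf had normalized counts of 79.6, 73.0 and 97.8 in Vps15KO cells in EBSS and 76.2, 78.4 and 90.2 in Vps15KO cells in basal medium, against 164, 167 and 151 in WT cells in EBSS and 169, 257 and 197 in WT cells in basal medium. All 6 Vps15KO libraries lay under all 6 WT libraries. The log2 change for Vps15KO was -0.78 ± 0.12 in EBSS (limma adjusted p = 3e-05) and -1.11 ± 0.12 in basal medium (adjusted p = 5e-07). Its log2 change under EBSS in WT cells, -0.31 ± 0.12 (limma adjusted p = 0.0372), was -0.16 and not called without WT basal replicate 2, the highest library, and was also lost without any of the 3 WT EBSS libraries. In EBSS Ctsk stood at 57.0, 74.0 and 82.0 normalized counts in Vps15KO against 24.2, 29.5 and 19.4 in WT libraries, and in basal medium at 47.8, 56.8 and 52.0 in Vps15KO against 24.1, 47.6 and 17.99 in WT libraries. Ctsk encodes cathepsin K, a collagen-degrading enzyme best known from osteoclasts, and every Vps15KO library lay above the WT libraries of its medium, the highest of which was 47.6 in basal medium, in the library that stood apart. The ratio of mean normalized counts was 2.92 in EBSS and 1.75 in basal medium (limma adjusted p = 5.37e-05 and 0.00786). The 6 osteoclast markers summed to 63.2 to 88.5 normalized counts in Vps15KO cells in EBSS against 58.1 to 62.1 in WT cells in EBSS, and to 74.5 to 83.0 in Vps15KO against 34.9 to 43.1 in WT cells in basal medium, with Calcr at 0 and Dcstamp at means of 0.978 to 1.31. Among them Atp6v0d2 averaged 41.7 normalized counts in Vps15KO against 23.0 in WT cells in EBSS, and 32.0 in Vps15KO against 3.75 in WT cells in basal medium. Mmp9 averaged 29.6 in Vps15KO against 30.4 in WT cells in EBSS, and 41.8 against 28.5 in basal medium. The part of these markers in the Ctsk difference was not tested.

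Ctsz and Lgmn were higher in Vps15KO in both media and lower after EBSS in Vps15KO cells. In EBSS Ctsz stood at 11412, 10656 and 10789 normalized counts in Vps15KO against 8856, 9244 and 9053 in WT libraries, and in basal medium at 13762, 14383 and 13880 in Vps15KO against 10396, 12842 and 10316 in WT libraries. Ctsz, encoding the carboxypeptidase cathepsin Z, was higher in Vps15KO by 0.27 ± 0.07 log2 in EBSS and 0.33 ± 0.07 in basal medium. It fell under EBSS by 0.35 in Vps15KO cells and by 0.30 in WT cells, with groups that did not overlap, but the fall in WT cells was -0.02 and not called once trends with transcript length and GC content were removed. In EBSS Lgmn stood at 22741, 23941 and 22988 normalized counts in Vps15KO against 17754, 18689 and 17988 in WT libraries, and in basal medium at 29074, 28251 and 25871 in Vps15KO against 19341, 22603 and 19135 in WT libraries. Lgmn encodes legumain, which cuts after asparagine and matures other cathepsins; it was higher in Vps15KO by 0.36 ± 0.07 in EBSS and 0.45 ± 0.07 in basal medium. Under EBSS it fell in Vps15KO cells, by 0.25, a call lost at -0.09 under quantile normalization. Ctsh, encoding the aminopeptidase cathepsin H, was lower in Vps15KO, with log2 changes of -0.39 in EBSS and -0.32 in basal medium. Ctsa, encoding the protective protein of beta-galactosidase and neuraminidase, was higher by 0.24 and 0.21. Ctsb and Tpp1, encoding cathepsin B and tripeptidyl peptidase, were higher in Vps15KO in basal medium, by 0.19 and 0.26. Tpp1 also rose under EBSS in WT cells, by 0.31. Exons of Ctsb overlap 774 bases of Fdft1 on the other strand. In basal medium Fdft1 averaged 5771 normalized counts in Vps15KO against 2226 in WT cells, and Ctsb 116744 against 102381. The part of Fdft1 in the Ctsb value was not tested. Ctsd had normalized counts of 79089, 83739 and 84403 in Vps15KO cells in EBSS and 91790, 90132 and 87634 in Vps15KO cells in basal medium, against 78867, 85950 and 82735 in WT cells in EBSS and 90048, 104044 and 79440 in WT cells in basal medium. Its groups overlapped in each genotype comparison, and its log2 change for Vps15KO in basal medium was -0.01 ± 0.09 and not called. Under quantile normalization they were 0.27 in EBSS and 0.21 in basal medium, and called.

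Glycosidases remove sugars from glycoproteins and glycolipids. For Vps15KO in EBSS, 5 of 10 were higher and 2 lower, and in basal medium 4 were higher and 3 lower. EBSS called 1 higher and 2 lower in Vps15KO cells, against 2 higher and 3 lower in WT cells. Gla, encoding alpha-galactosidase A, the enzyme missing in Fabry disease, had the largest log2 change among the hydrolases in 3 of the 4 comparisons, all but EBSS in Vps15KO cells, where Neu1 changed more. Gla had normalized counts of 4722, 4391 and 4170 in Vps15KO cells in EBSS and 2831, 2737 and 2823 in Vps15KO cells in basal medium, against 2306, 2198 and 2014 in WT cells in EBSS and 913, 960 and 1026 in WT cells in basal medium. The 4 groups stood in that order with no overlap between any of them. EBSS raised Gla by 0.66 ± 0.07 log2 in Vps15KO cells and 1.15 ± 0.07 in WT cells (limma adjusted p = 1.83e-07 and 7.73e-11), which is a ratio of mean normalized counts of 1.58 and 2.25. It was higher in Vps15KO by 1.02 ± 0.07 in EBSS and 1.51 ± 0.07 in basal medium (limma adjusted p = 3.43e-10 and 3.53e-12), ratios of 2.04 and 2.89. These changes were called in all 26 alternative settings. Neu1, encoding the sialidase neuraminidase 1, moved the other way under EBSS. Neu1 had normalized counts of 2335, 2339 and 2334 in Vps15KO cells in EBSS and 3752, 4015 and 4006 in Vps15KO cells in basal medium, against 1633, 1575 and 1540 in WT cells in EBSS and 1917, 2126 and 1863 in WT cells in basal medium. EBSS libraries lay under basal libraries in each genotype, and Vps15KO libraries above WT libraries in each medium. The log2 change under EBSS was -0.74 ± 0.06 in Vps15KO and -0.31 ± 0.06 in WT cells (limma adjusted p = 1.07e-08 and 0.000216), and the change for Vps15KO was 0.55 ± 0.06 in EBSS and 0.99 ± 0.06 in basal medium.

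Naglu, encoding alpha-N-acetylglucosaminidase of heparan sulfate breakdown, shared the directions of Neu1. It fell under EBSS by 0.24 log2 in Vps15KO and 0.29 in WT cells, and was higher in Vps15KO by 0.44 ± 0.06 in EBSS and 0.40 ± 0.06 in basal medium. Manba, encoding beta-mannosidase, was higher in Vps15KO by 0.21 in EBSS and 0.49 in basal medium, and rose under EBSS in WT cells by 0.24. Idua, encoding alpha-L-iduronidase, fell under EBSS in WT cells by 0.29 and was higher in Vps15KO in EBSS by 0.41. Gusb and Man2b1, encoding beta-glucuronidase and alpha-mannosidase, were lower in Vps15KO, with log2 changes of -0.46 and -0.27 in EBSS and -0.31 and -0.29 in basal medium. Gaa, encoding the glycogen-degrading alpha-glucosidase, was lower in Vps15KO in basal medium, by 0.17, and had -0.09 and no call in EBSS. Glb1 and Hexa, encoding beta-galactosidase and the alpha subunit of beta-hexosaminidase, had log2 changes between -0.12 and 0.14 in the 4 comparisons and no call.

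Sulfatases cut sulfate groups from glycans and sulfatides. None of the 5 was called higher in Vps15KO in either medium; 3 were lower in EBSS and 2 in basal medium. EBSS called 1 lower and none higher in Vps15KO cells, against 2 higher and 1 lower in WT cells. Ids encodes iduronate-2-sulfatase, the enzyme missing in Hunter syndrome. Ids had normalized counts of 1309, 1475 and 1443 in Vps15KO cells in EBSS and 1372, 1215 and 1392 in Vps15KO cells in basal medium, against 1999, 2246 and 2097 in WT cells in EBSS and 1583, 1213 and 1488 in WT cells in basal medium. The 3 libraries of WT cells in EBSS lay above the other 9. Ids rose under EBSS in WT cells by 0.56 ± 0.09 log2 (limma adjusted p = 1.8e-05) and had a log2 change of 0.09 ± 0.09 in Vps15KO cells that was not called. It was lower in Vps15KO in EBSS by 0.58 (limma adjusted p = 1.54e-05), with -0.10 and no call in basal medium. Arsb, encoding arylsulfatase B, also rose under EBSS in WT cells, by 0.31. Unlike Ids it was called lower in Vps15KO in both media, with log2 changes of -0.44 in EBSS and -0.21 in basal medium. The difference of its EBSS change between genotypes was not called. Galns, encoding N-acetylgalactosamine-6-sulfatase, fell under EBSS by 0.19 in Vps15KO and 0.30 in WT cells. Sgsh, encoding heparan N-sulfatase, was lower in Vps15KO in EBSS by 0.31, and Arsa, encoding arylsulfatase A, had no call.

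The lipid hydrolases and activators degrade triglycerides, sphingolipids, phospholipids and fatty acylated proteins. Under EBSS none was called higher and 2 were lower of 8 in Vps15KO cells, against 4 higher and 2 lower in WT cells. For Vps15KO, 1 was higher and 3 lower in EBSS, and 2 were higher and 3 lower in basal medium. Asah1 encodes acid ceramidase. Asah1 had normalized counts of 14318, 14966 and 13436 in Vps15KO cells in EBSS and 14925, 13312 and 14858 in Vps15KO cells in basal medium, against 11677, 12805 and 13043 in WT cells in EBSS and 10433, 8162 and 9733 in WT cells in basal medium. All 9 libraries of the other groups lay above the highest library of WT cells in basal medium, 10433. It rose under EBSS in WT cells by 0.41 ± 0.08 log2 (limma adjusted p = 0.000279), with -0.01 ± 0.08 and no call in Vps15KO cells. It was higher in Vps15KO in basal medium by 0.61 ± 0.08 (limma adjusted p = 4.68e-06). In EBSS Galc stood at 1160, 1060 and 1122 normalized counts in Vps15KO against 815, 859 and 882 in WT libraries, and in basal medium at 1073, 1160 and 1162 in Vps15KO against 744, 658 and 773 in WT libraries. Galc, encoding the galactosylceramidase missing in Krabbe disease, was higher in Vps15KO by 0.38 ± 0.07 in EBSS and 0.63 ± 0.07 in basal medium, with groups that did not overlap.

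Gm2a and Ppt1 were lower in Vps15KO in both media. In EBSS Gm2a stood at 4727, 5068 and 5622 normalized counts in Vps15KO against 7476, 8260 and 8053 in WT libraries, and in basal medium at 6097, 5927 and 5757 in Vps15KO against 8575, 8696 and 8136 in WT libraries. Gm2a encodes the activator that lifts ganglioside GM2 out of the membrane, and its 6 Vps15KO libraries lay under all 6 WT libraries, with log2 changes of -0.63 ± 0.07 in EBSS and -0.51 ± 0.07 in basal medium. In EBSS Ppt1 stood at 3281, 3513 and 3453 normalized counts in Vps15KO against 4853, 5329 and 5005 in WT libraries, and in basal medium at 3540, 3237 and 3169 in Vps15KO against 4679, 4208 and 4285 in WT libraries. Ppt1 encodes palmitoyl protein thioesterase 1, and its log2 changes were -0.56 ± 0.06 and -0.40 ± 0.06. In EBSS Pla2g15 stood at 1382, 1581 and 1548 normalized counts in Vps15KO against 1908, 1957 and 2082 in WT libraries, and in basal medium at 2243, 2169 and 2130 in Vps15KO against 2505, 2979 and 2482 in WT libraries. Pla2g15, encoding a lysosomal phospholipase, was called in all 4 comparisons, always lower, and its groups did not overlap in any of them. Its log2 change under EBSS was -0.53 ± 0.07 in Vps15KO and -0.41 ± 0.07 in WT cells, and that for Vps15KO was -0.39 ± 0.07 in EBSS and -0.28 ± 0.07 in basal medium. Lipa, encoding acid lipase, rose under EBSS in WT cells by 0.18, and Smpd1, encoding acid sphingomyelinase, fell there by 0.22. Psap had normalized counts of 66683, 70186 and 70123 in Vps15KO cells in EBSS and 75220, 70938 and 70683 in Vps15KO cells in basal medium, against 66059, 67209 and 70620 in WT cells in EBSS and 69213, 76731 and 67075 in WT cells in basal medium. Psap had log2 changes between -0.07 and 0.03 in the 4 comparisons, and none was called.

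Of the acid phosphatases, Acp2 was lower and Acp5 not called in Vps15KO. Acp2 had normalized counts of 1320, 1367 and 1319 in Vps15KO cells in EBSS and 1303, 1089 and 1036 in Vps15KO cells in basal medium, against 2221, 2429 and 2181 in WT cells in EBSS and 2093, 1924 and 1934 in WT cells in basal medium. Every Vps15KO library lay under every WT library. The log2 change of Acp2 for Vps15KO was -0.76 ± 0.08 in EBSS and -0.79 ± 0.08 in basal medium (limma adjusted p = 1.04e-07 and 6.86e-08). EBSS raised Acp2 by 0.23 ± 0.08 in Vps15KO and 0.20 ± 0.08 in WT cells (limma adjusted p = 0.0173 and 0.0304). With the length and GC trends removed those values were 0.05 and -0.03 and not called. The rise in Vps15KO cells was also lost without Vps15KO EBSS replicate 2 or without Vps15KO basal replicate 2 or 3. Exons of Acp2 overlap 621 bases of Ddb2 on the other strand, which had 99.1 to 146 mean normalized counts per group and no call for Vps15KO. In EBSS Acp5 stood at 8.85, 4.93 and 6.91 normalized counts in Vps15KO against 5.03, 4.07 and 5.10 in WT libraries, and in basal medium at 8.79, 8.82 and 6.86 in Vps15KO against 7.01, 11.6 and 10.00 in WT libraries. Acp5, the tartrate-resistant phosphatase used as an osteoclast stain, was near the limit of detection, and its fall under EBSS in WT cells, -0.33 ± 0.13 (limma adjusted p = 0.0355), was lost without WT EBSS replicate 1, 2 or 3 or without WT basal replicate 2 or 3.

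Membrane proteins hold the limiting membrane together, export products of digestion and move ions. For Vps15KO in EBSS, 4 of 8 were higher and 1 lower, and in basal medium 5 were higher and 1 lower. Under EBSS 2 were higher and 3 lower in Vps15KO cells, against 3 higher and none lower in WT cells. Ctns encodes cystinosin, which exports cystine from the lysosome. Ctns had normalized counts of 2804, 2584 and 2608 in Vps15KO cells in EBSS and 1472, 1329 and 1317 in Vps15KO cells in basal medium, against 3040, 2883 and 2824 in WT cells in EBSS and 1305, 1181 and 1313 in WT cells in basal medium. The lowest EBSS library, at 2584, lay above the highest basal library, at 1472. The log2 change under EBSS was 0.94 ± 0.06 in Vps15KO and 1.19 ± 0.06 in WT cells (limma adjusted p = 1.08e-09 and 3.82e-11), ratios of mean normalized counts of 1.94 and 2.30. For Vps15KO the change was -0.13 ± 0.06 in EBSS and 0.11 ± 0.06 in basal medium, and neither was called. Cd68 encodes macrosialin, a glycoprotein used as a macrophage stain. Cd68 had normalized counts of 2616, 2639 and 3292 in Vps15KO cells in EBSS and 2907, 3792 and 3647 in Vps15KO cells in basal medium, against 797, 789 and 881 in WT cells in EBSS and 892, 864 and 867 in WT cells in basal medium. All Vps15KO libraries lay above all WT libraries, and the ratio of means was 3.47 in EBSS and 3.95 in basal medium. The log2 change for Vps15KO, 1.75 ± 0.09 in EBSS and 1.94 ± 0.09 in basal medium (limma adjusted p = 3.48e-11 and 1.11e-11), was the largest of the members. The 10 macrophage markers summed to 70.0 to 77.7 normalized counts in Vps15KO and 73.4 to 86.6 in WT cells in EBSS, and to 105 to 111 in Vps15KO and 102 to 116 in WT cells in basal medium. Cd14 had the highest mean of the 10 in every group. Its means were 46.99 in Vps15KO and 53.75 in WT cells in EBSS, and 94.97 and 97.82 in basal medium. Csf1r averaged 15.4 in Vps15KO against 14.5 in WT cells in EBSS, and 6.85 against 2.69 in basal medium. Fcgr1 averaged 5.92 against 7.77 in EBSS and 1.63 against 2.06 in basal medium. Ptprc, Adgre1 and Tyrobp had means under 1 normalized count in every group. The part of these markers in the Cd68 difference was not tested.

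**Figure D3:**
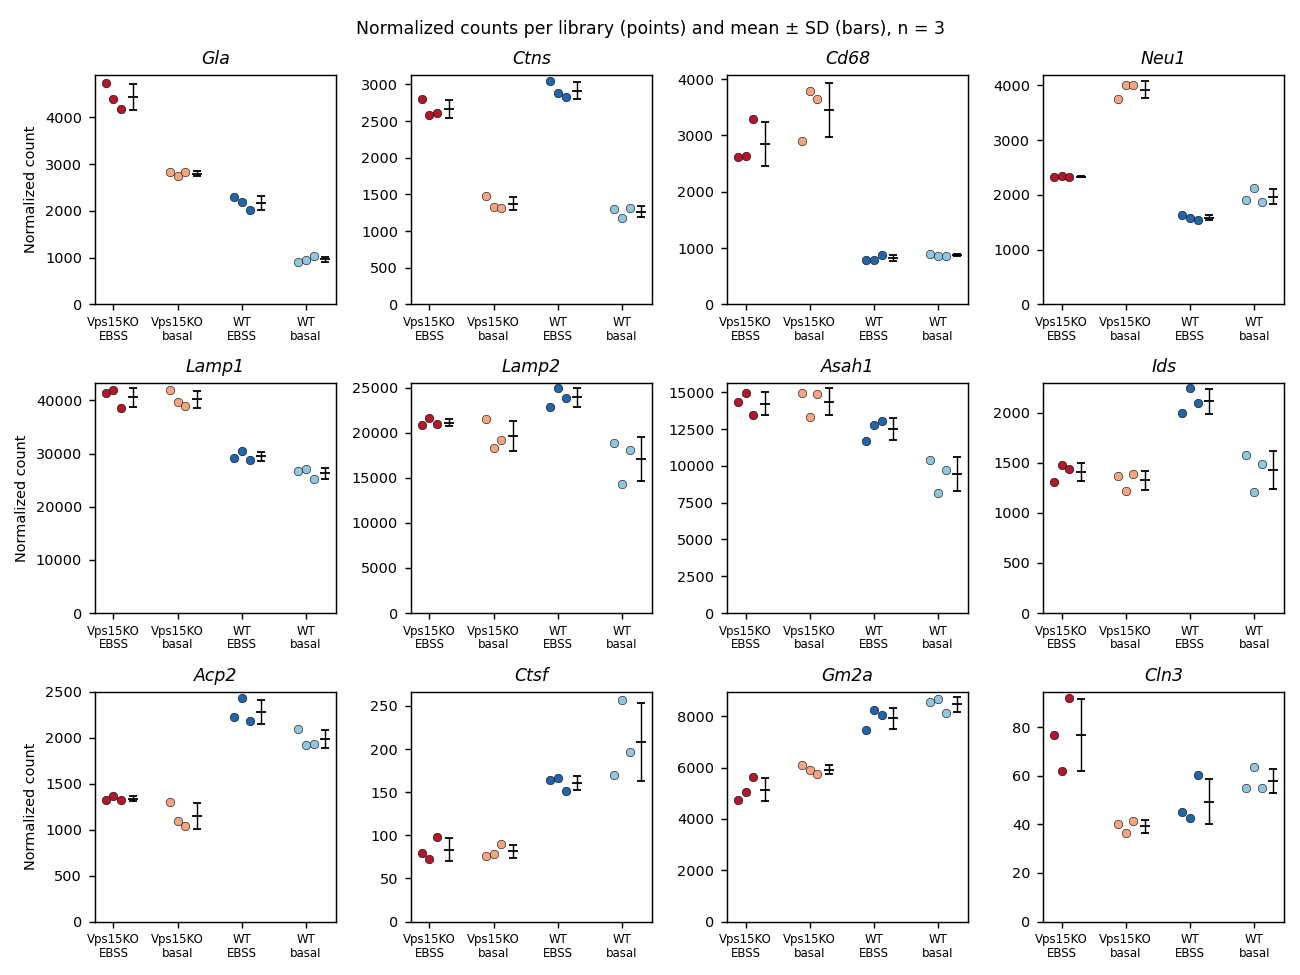
Normalized counts in each of the 12 libraries (points) with group mean ± SD (bars, n = 3) for 12 lysosomal genes, from Vps15KO in EBSS at the left to WT in basal medium at the right; axes start at 0. Gla has 4 separate groups, Ctns separates by medium, and Cd68, Acp2, Ctsf and Gm2a separate by genotype.

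Lamp1 and Lamp2 encode the main glycoproteins of the lysosomal membrane. Lamp1 had normalized counts of 41390, 41885 and 38548 in Vps15KO cells in EBSS and 41985, 39642 and 39020 in Vps15KO cells in basal medium, against 29168, 30422 and 28807 in WT cells in EBSS and 26638, 27146 and 25178 in WT cells in basal medium. All 6 Vps15KO libraries lay above all 6 WT libraries. Lamp1 was higher in Vps15KO by 0.46 ± 0.07 log2 in EBSS and 0.61 ± 0.07 in basal medium (limma adjusted p = 7.64e-06 and 2.78e-07), and rose under EBSS in WT cells by 0.16. Lamp2 had normalized counts of 20858, 21621 and 20931 in Vps15KO cells in EBSS and 21478, 18311 and 19145 in Vps15KO cells in basal medium, against 22891, 24982 and 23906 in WT cells in EBSS and 18846, 14360 and 18095 in WT cells in basal medium. Lamp2 was highest in WT cells in EBSS. It rose there by 0.49 ± 0.09 (limma adjusted p = 8.43e-05), and its call in Vps15KO in basal medium, 0.21 ± 0.09 with groups that overlapped, was lost in 20 of 26 alternatives. Mcoln1, encoding the calcium channel TRPML1, was higher in Vps15KO by 0.33 ± 0.05 in EBSS and 0.51 ± 0.05 in basal medium. In EBSS Cd63 stood at 28117, 28606 and 28226 normalized counts in Vps15KO against 35864, 33158 and 33550 in WT libraries, and in basal medium at 34639, 34511 and 33216 in Vps15KO against 34335, 39411 and 34173 in WT libraries. Cd63 was lower under EBSS in Vps15KO cells by 0.27 and lower in Vps15KO in EBSS by 0.27, while the other 3 groups overlapped. Scarb2, encoding the receptor that carries beta-glucocerebrosidase, was higher in Vps15KO in basal medium by 0.16. Grn was higher in Vps15KO by 0.21 in EBSS and 0.26 in basal medium and was not called under EBSS.

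The EBSS change differed between genotypes, by the interaction term over all 12 libraries, in 6 of 44 members: 1 higher and 5 lower in Vps15KO, beside 17.8% of all genes tested (9.55% higher, 8.24% lower). A called difference of at least 0.5 in size was met by 1 member, Cln3, beside 8.6% of all genes. Over members the median difference of the log2 changes, Vps15KO minus WT, was -0.11, against -0.0011 over all genes tested. The 5 lower ones were Gla, at -0.49 ± 0.09 (limma adjusted p = 0.00137), Ids at -0.48 ± 0.12 (adjusted p = 0.0111), Neu1 at -0.43 ± 0.08 (adjusted p = 0.00169), Asah1 at -0.42 ± 0.12 (adjusted p = 0.0167) and Lamp2 at -0.38 ± 0.12 (adjusted p = 0.0378). Gla rose less in Vps15KO, Neu1 fell further, and Ids, Asah1 and Lamp2 were called in WT cells alone. The call on Asah1 was lost without Vps15KO EBSS replicate 3, and that on Lamp2 without any of 7 of the 12 libraries. The count of 5 lower was 3 without Vps15KO EBSS replicate 3. Ctns differed by -0.24 ± 0.09 and was not called (limma adjusted p = 0.0746).

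**Figure D4:**
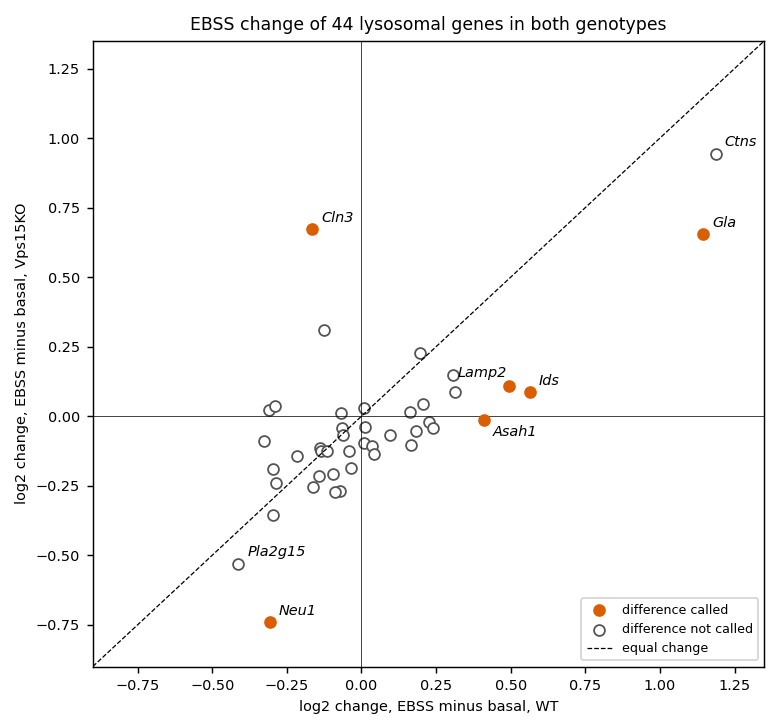
Log2 change under EBSS in WT cells (x axis) against that in Vps15KO cells (y axis) for the 44 lysosomal genes tested; filled points are the 6 whose change differed between genotypes, and the dashed line marks equal change. Cln3 lies above the line and Gla, Ids, Asah1, Lamp2 and Neu1 below it.

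Cln3 encodes battenin, a lysosomal membrane protein lost in juvenile neuronal ceroid lipofuscinosis. Cln3 had normalized counts of 76.7, 62.1 and 91.9 in Vps15KO cells in EBSS and 40.0, 36.3 and 41.2 in Vps15KO cells in basal medium, against 45.3, 42.7 and 60.1 in WT cells in EBSS and 55.1, 63.5 and 55.0 in WT cells in basal medium. In Vps15KO cells the EBSS libraries lay above the basal libraries, and in WT cells the groups overlapped. The log2 change under EBSS was 0.67 ± 0.12 in Vps15KO and -0.17 ± 0.12 in WT cells (not called in WT), and the difference was 0.84 ± 0.18 (limma adjusted p = 0.00286). For Vps15KO the change was 0.46 ± 0.12 in EBSS and -0.38 ± 0.12 in basal medium, and the second was lost without Vps15KO basal replicate 2 (limma adjusted p = 0.0501). Of the 3354 exon bases of Cln3, 442 overlap exons of Apobr on the other strand. Apobr had 1345 mean normalized counts in EBSS against 282 in basal medium in Vps15KO cells, and 1287 against 247 in WT cells. Whether reads were counted by strand is not given in the sources used here. Reads of the 2 genes from the shared bases therefore cannot be told apart, and their part in the Cln3 values was not tested. Lamp1 overlaps 177 bases of Grtp1 on the other strand, at 128 to 273 mean normalized counts per group, against at least 25178 for Lamp1.

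RefSeq promoter windows (GRCm38.p6, 250 bases before to 50 after a start site) were at hand for 41 of 45 members, all but Asah1, Ctsb, Ctsh and Galns. The letters CACGTG, a palindrome that reads alike on both strands and is the core of the MiT/TFE element, stood in the windows of 14 of 41 members (34.1%), against 11.6% of 10879 genes tested and 8.09% of 27025 genes with a window. All stretches that hold a core in 6 members are given below, chosen to set 4 genes that were higher in Vps15KO in both media beside Ctsd, with no call, and Ctsf, which was lower; capitals mark the core, and each is 5′ to 3′ on the strand of the gene.
Lamp1, chr8:13159080-13159160, plus strand: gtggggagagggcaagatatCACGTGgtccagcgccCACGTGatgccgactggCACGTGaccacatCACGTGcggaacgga
Gla, chrX:134601174-134601252, minus strand: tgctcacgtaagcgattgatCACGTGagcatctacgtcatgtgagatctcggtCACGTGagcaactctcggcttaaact
Mcoln1, chr8:3500428-3500499, plus strand: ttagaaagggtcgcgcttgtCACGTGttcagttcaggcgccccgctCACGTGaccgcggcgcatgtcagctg
Naglu, chr11:101070001-101070046, plus strand: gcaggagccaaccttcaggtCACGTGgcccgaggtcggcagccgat
Ctsd, chr7:142387900-142387945, minus strand: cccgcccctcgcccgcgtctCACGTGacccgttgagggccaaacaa
Ctsd, second core of the window, chr7:142388047-142388077, minus strand: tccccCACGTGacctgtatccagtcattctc
Ctsf, chr19:4855066-4855111, plus strand: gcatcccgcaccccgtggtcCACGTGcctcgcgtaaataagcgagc
These stretches lie before the RefSeq start site. The Lamp1 window holds 4 cores, those of Gla, Mcoln1 and Ctsd 2 each, and those of Naglu and Ctsf 1 each.

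Members with and without the core had calls in each direction. Of 14 members with it, 7 were higher and 2 lower in Vps15KO in EBSS, against 8 and 9 of 26 without it. In basal medium these counts were 6 higher and 3 lower with the core, against 10 and 7 without it. Under EBSS they were 2 higher and 3 lower with the core in Vps15KO cells, against 2 and 6 without it, and in WT cells 2 and 2 with it, against 10 and 6 without it. Beside the genotype counts stand shares over the whole fit of 29.4% higher and 27.8% lower in EBSS, and 29.3% and 29.2% in basal medium. Beside the EBSS counts stand 25.9% and 26.1% in Vps15KO cells, and 31.4% and 31.3% in WT cells. Whether the core bears on the calls was not tested. Cln3, which shares 442 exon bases with Apobr, is 1 of the 7 with the core that were higher in Vps15KO in EBSS. It is also 1 of the 3 lower in Vps15KO in basal medium, and 1 of the 2 higher under EBSS in Vps15KO cells. Ctns, with the largest EBSS change, had no CACGTG in its window, and neither had Cd68 or Neu1.

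Other genes of the organelle, here and in the next paragraph, were read off the same fit. Of all genes tested, EBSS called 25.9% higher and 26.1% lower in Vps15KO cells, and 31.4% and 31.3% in WT cells. Vps15KO called 29.4% higher and 27.8% lower in EBSS, and 29.3% and 29.2% in basal medium. The counts of each list stand beside these shares. Of 24 other lysosomal hydrolases, EBSS called 1 higher and 8 lower in Vps15KO cells, against 8 higher and 6 lower in WT cells; Vps15KO called 8 higher and 9 lower in EBSS and 12 higher and 8 lower in basal medium. Hyal2, encoding a hyaluronidase, was lower in Vps15KO by 0.97 log2 in EBSS and 0.64 in basal medium, and Rnaset2b, encoding an acid ribonuclease, was higher by 1.64 and 1.66. Of 23 other membrane proteins and transporters, EBSS called 9 higher and 1 lower in Vps15KO cells, against 14 higher and 4 lower in WT cells; Vps15KO called 12 higher and 6 lower in EBSS and 13 higher and 2 lower in basal medium. Slc36a1, encoding an amino acid exporter, rose under EBSS by 1.23 in Vps15KO and 1.09 in WT cells. Slc66a1, encoding a transporter of cationic amino acids, rose by 0.99 and 0.85. Tpcn1, encoding an endolysosomal cation channel, rose by 0.46 ± 0.06 in Vps15KO and 0.92 ± 0.06 in WT cells, a difference of -0.46 ± 0.08 (limma adjusted p = 0.000642).

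Of 12 genes of mannose 6-phosphate tagging and sorting, EBSS called 4 higher and 2 lower in Vps15KO cells, against 6 higher and 1 lower in WT cells; Vps15KO called 3 higher and 6 lower in EBSS and 3 higher and 5 lower in basal medium. Gnptab, encoding the phosphotransferase that starts the tag, was higher in Vps15KO by 0.39 log2 in EBSS and 0.78 in basal medium, and Sort1, encoding the receptor sortilin, was lower by 0.69 and 0.44. Among the MiT/TFE factors, Tfeb had 394 ± 35.2 normalized counts in Vps15KO cells in EBSS and 492 ± 9.81 in Vps15KO cells in basal medium, against 420 ± 23.8 and 796 ± 80.8 in the matching WT cells (SD, n = 3 each). Its mRNA fell under EBSS by 0.30 log2 in Vps15KO and 0.88 in WT cells, and the difference, 0.57 ± 0.12, was called (limma adjusted p = 0.00244). Tfe3 was higher in Vps15KO by 0.35 in EBSS and 0.29 in basal medium, and Mitf rose under EBSS by 0.64 in Vps15KO and 0.34 in WT cells. These are mRNA levels, and the place of the proteins in the cell was not measured.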

How the data were processed

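Poly-A RNA of 12 MEF libraries was read from 1 table of the whole series. The deposited values are log2 values that the authors made by a variance-stabilizing transformation of gene counts; the submitters' processing notes list the build mm10 and the tools featureCounts, STAR 2.7.10b, limma and DESeq2, with no role given. The library protocol marks strand with dUTP, per the labels' protocols, and whether counting used it is not given in the sources used here. All libraries carry 1 batch label. The table's floor of 3.83, a count of 0, was used to invert the transformation: in every library 100% of values gave whole reads within 0.001. A count of 0 allows up to 3 reads, for counting error only.

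The 14279 genes whose mean over libraries exceeded the floor by 1 or more were fitted with limma 3.58.1 in R 4.3.3 (group means, variance trend, 8 residual degrees of freedom, two-sided, Benjamini-Hochberg over all genes tested in a comparison, called at adjusted p under 0.05). Log2 changes understate ratios of genes with few reads, and their errors are standard errors. The fit was also run on simulated counts, with changes in WT cells in EBSS alone and no effect shared within a library. That run checked the code and does not measure the error of calls in these data. Tables were made with Python 3.11.15 and pandas 2.3.3. The 45 members, the roles and the other gene lists were chosen with earlier results of these data known, so counts of members stand beside those of all genes and no test was made over a list. Named with values are up to 5 members called in each direction with the largest change and groups that do not overlap, the called differences of the EBSS effect, the 3 highest per kb, Pik3r4 and the MiT/TFE factors, and some of the up to 3 genes with the smallest p of each other list; other members are given by their log2 change, chosen after values were seen where an error stands beside it (Naglu, Mcoln1). Exon lengths, GC content and exon overlaps came from GENCODE vM21, and start sites and promoters from RefSeq GRCm38.p6, which matched all 45 symbols. Correlations of residuals between EBSS and basal libraries of the same number were -0.155 to 0.0125, so replicate numbers were not used as a block in the main comparison. Between Vps15KO and WT libraries of the same number they were all positive, at 0.039 to 0.124 in EBSS and 0.0825 to 0.260 in basal medium. A fit with the replicate block was therefore kept as an alternative. Voom on the worked-back reads was an alternative, as were other filters, scalings and left-out libraries.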

Additional observations from a re-analysis of the deposited data

Results flagged for a closer look

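The change under EBSS differed between Vps15KO and WT cells in 6 lysosomal genes, by the interaction term in limma over all 14279 genes. That is 13.6% of the 44 members tested, beside 17.8% of all genes. As Vps15KO minus WT, the difference of the log2 changes was 0.84 for Cln3, -0.49 for Gla, -0.48 for Ids, -0.43 for Neu1, -0.42 for Asah1 and -0.38 for Lamp2. For Cln3, 442 bases of exon are shared with Apobr on the other strand, whose mean normalized counts were 1345 in EBSS against 282 in basal medium in Vps15KO cells and 1287 against 247 in WT cells; its part in the Cln3 value was not tested. With 3 libraries a group, single values of a gene were not tested for outliers.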

How the results depend on the processing

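Values for the members named with counts per library kept their side of the threshold in 2647 of the settings tried over genes and comparisons. They lost a call in 127, gained one in 46 and reversed in 3. A change of sign was counted as a reversal only where the main or the alternative fit called the gene. Changes of sign without a call are among the 2647. An example is Ctsd for Vps15KO in basal medium, at -0.11 to 0.087 with 1 library left out. The reversals were Acp2 under EBSS in WT cells with length and GC trends removed (-0.034), and Ctsd for Vps15KO under quantile normalization (0.27 in EBSS, 0.21 in basal medium); the cause was not tested. Of the summary values 593 stayed close and 42 moved, which are given here, members before all genes. Under EBSS in Vps15KO cells, members called were 7 higher with library weights, 6 lower at adjusted p under 0.01, and 2 lower with a log2 change of at least 0.5 (all genes 1658 higher, 896 lower). With that rule EBSS in WT cells gave 3 higher and 0 lower (all genes 2195 and 1741), Vps15KO in EBSS 4 and 5 (1850 and 1659), Vps15KO in basal medium 8 and 3 (1794 and 1683), and the difference 0 lower (714 and 514). The difference also gave 2 higher and 10 lower with library weights (all genes 1805 lower), 2 lower at adjusted p under 0.01 (707 and 520), 0 higher with the filter at 3, where Cln3 was not tested, and 2 higher without both WT libraries that stand apart. The median over members under EBSS in WT cells was -0.0045 with library weights, 0.024 with length and GC trends removed and 0.017 without both WT libraries, and for Vps15KO in EBSS 0.16 under quantile normalization and -0.048 with equal medians. Leaving out 1 library gave 6 to 13 members lower under EBSS in Vps15KO cells, a median of -0.10 to 0.010 in WT cells, and for the difference 1 to 2 higher, 3 to 6 lower and a median of -0.13 to -0.061. With the replicate block, members called were 4 higher and 10 lower under EBSS in Vps15KO cells, 13 and 10 in WT cells, 15 and 12 for Vps15KO in EBSS, 18 and 12 in basal medium, and 1 and 5 for the difference. Same-numbered libraries of Vps15KO and WT had residual correlations of 0.039 to 0.124 in EBSS and 0.0825 to 0.260 in basal medium. Low counts limit Ctss, Acp5, Ctsk, Cln3 and Ctsf.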
